A study of Arabidopsis thaliana with 22 samples.

Results

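The 2 libraries described here, Ba-1 mock 1 and Ba-1 UV 1 by label (count columns 1 and 3), were the only ones of the first 11 count columns in which ESP (AT1G54040) lay at or under 35 CPM. They are 2 of the 22 libraries of the series and are called the ESP-low pair. CPM are counts scaled to a fixed library size. On library totals ESP stood at 34.5 CPM in the higher of the 2 columns and at 1487 CPM in the lowest of the other 9. Column 3 of the pair thus lay just under the limit, and the other 9 lay far above it. The pair was chosen by its ESP level and then set against the same columns, so every difference between the pair and the other columns is a description and carries no test.

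The series profiled whole Arabidopsis thaliana seedlings of 6 accessions, which are inbred natural strains, by RNA sequencing. The accessions are T1080, Mh-0, Lip-0, Got-7, C24 and Ba-1. Per the labels, seedlings aged 14 days either received ultraviolet light of 312 nm (4.35 W per square metre) or were mock treated, with collection 3 h later. The other 9 columns of the first 11 were set against the pair as 5 genotype blocks. These were Ba-1 mock 2 with Ba-1 UV 2 (block 2), C24 mock 1 with C24 mock 2 (block 3), C24 UV 1 (block 4), C24 UV 2 with Got-7 mock 1 (block 5), and Got-7 mock 2 with Got-7 UV 1 (block 6). All of these plants are wild strains, and the labels name no mutant or transgene.

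The blocks rest on loci that differ between accessions and go against the labels in places. The pair and block 2 carry the same accession label, yet ESP stood at 30.4 and 35.2 CPM in columns 1 and 3 and at 2790 and 2764 CPM in the columns of block 2. Block 5 joins a column labelled C24 with a column labelled Got-7. In the pair a column labelled mock stands beside a column labelled UV. Treatment, accession name and column can therefore not be told apart here, and the pair is named by its ESP level and by nothing else. The labels also do not say that libraries came from separately grown plants, so the spread within a block may be technical.

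Total counts ran from 3539510 in column 1, the shallowest library, to 20903894 in column 7. Column 3 held 10919565 counts. An upper limit of 3 counts was set on any value of 0, which is 0.86 CPM in column 1. Of 24185 loci in the deposited table, 17249 reached 1 CPM in at least 2 of the first 11 columns. All further CPM values were scaled by TMM factors, a correction for library composition, which places ESP at 35.2 CPM in column 3. Summed root markers were at 48.5 and 49.7 CPM in the pair and 44.0 to 61.5 CPM in the other 9 columns, and summed flower and seed markers were at 4.88 and 2.43 CPM against 1.05 to 5.65 CPM. The root hair gene EXPA7 and the seed storage gene SESA1 were at 0 counts in all 11 columns.

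Glucosinolates are sulfur-containing defence compounds of the cabbage family that myrosinase enzymes split when tissue is damaged. By default the split product rearranges to an isothiocyanate. The epithiospecifier protein ESP diverts it to epithionitriles and nitriles, and nitrile-specifier proteins divert it to simple nitriles. ESP is known to differ in activity between Arabidopsis accessions, and ESM1 (epithiospecifier modifier 1) is a natural variation locus that favours isothiocyanates.

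A locus was called higher or lower in the pair when its fitted log2 difference from the mean of the 5 blocks was at least 1 in size and both columns of the pair lay beyond all 9 others. By this rule 239 loci were higher in the pair, 1.39% of the loci tested, and 172 were lower, 0.997% of the loci tested. The median log2 difference over all tested loci was 0.01, a value that the scaling itself holds near 0. Among the higher loci the median log2 difference was 1.79, and 97 of them exceeded 2. Among the lower loci the median was −1.58, and 54 were at −2 or below. The most abundant called transcript was that of ESP itself.

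**Figure D1:**
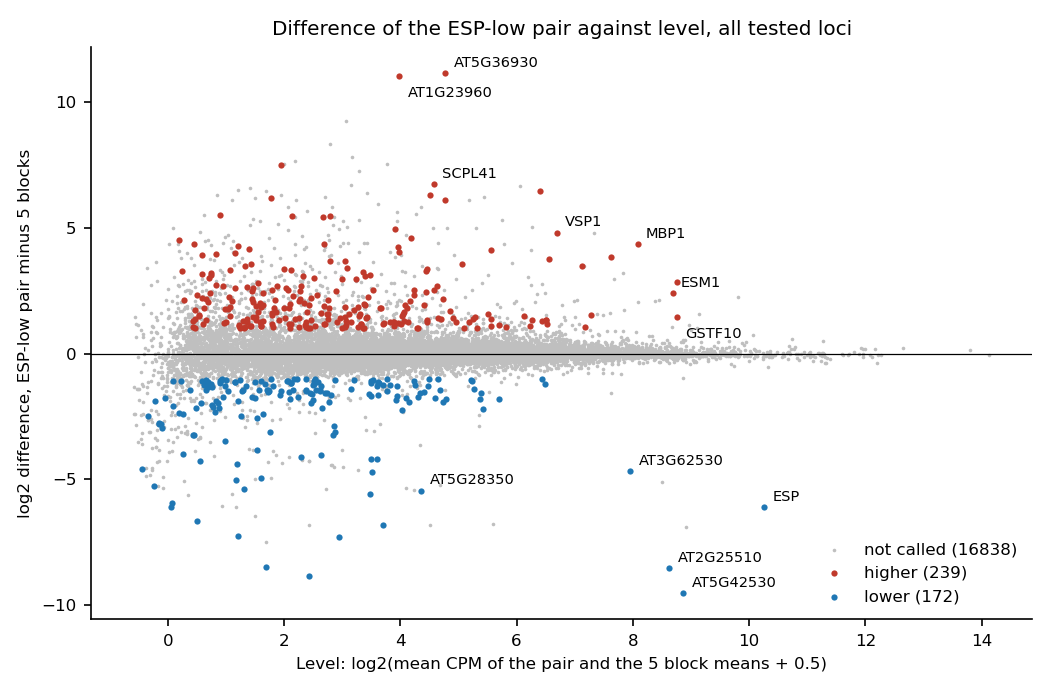
The vertical axis gives the fitted log2 difference of the ESP-low pair from the mean of the 5 blocks and the horizontal axis the level on a log2 CPM scale, with 1 point per tested locus. The 239 higher loci are red and the 172 lower loci are blue, and ESP and ESM1 lie at high levels while most called loci lie at low ones.

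Among the breakdown genes, ESP and ESM1 differed in opposite directions. ESP stood at 30.4 and 35.2 CPM in columns 1 and 3, and at 1549 to 3627 CPM in the other 9 columns with a median of 2391 CPM. Its log2 difference was −6.12 ± 0.08 (SE of the fit over 11 columns). ESM1 (AT3G14210) stood at 694 and 683 CPM in the pair and at 101 to 193 CPM in the other 9, a log2 difference of 2.40 ± 0.05. The 2 columns of the pair lay closer to each other for ESM1 than to any other column. MVP1 (AT1G54030) is next to ESP in the table order of locus codes and, like ESM1, is annotated as a GDSL-like lipase. It was at 53.9 and 84.5 CPM against 24.6 to 44.8 CPM, a log2 difference of 1.13 ± 0.14. Without column 3 it was 0.71, under the size needed for a call.

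Nitrile-specifier genes did not show a common direction. NSP1, the most abundant of them in these seedlings, stood at 64.8 and 63.1 CPM in the pair and at 53.1 to 103 CPM in the other 9, so the groups overlapped. NSP2 was called higher, but at a very low level, 1.15 and 1.31 CPM against at most 0.16 CPM. The sequences of these genes were not compared here, so whether reads were shared among them is not known. NSP4 and NSP5 also overlapped, with log2 differences of 0.04 ± 0.17 and 0.50 ± 0.20.

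The myrosinase genes TGG1 and TGG2 followed different patterns over the blocks. TGG1 stood at 2282 and 2008 CPM in the pair and at 1763 to 5218 CPM in the other 9, with overlap. TGG2 was low in the pair, at 5.45 and 7.56 CPM (100 counts in all), and also in block 2, at 2.90 and 2.31 CPM. Blocks 3 to 6 held 408 to 2241 CPM. Because block 2 lay below the pair, TGG2 was not called. Among the first 11 columns, a low TGG2 level was thus shared by the 4 columns labelled Ba-1, and a low ESP level by 2 of them. Low TGG2 was not particular to that label. Columns 12, 13 and 14, labelled Lip-0, held 11.2, 3.04 and 4.24 CPM, while column 15, also labelled Lip-0, held 2064 CPM.

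A further gene of this system, chosen after its values were seen, was MBP1 (AT1G52040), which encodes a myrosinase-binding protein. It was at 312 and 644 CPM in the pair. The other 9 columns ran from 0.71 to 157 CPM, highest in column 7 and lowest in block 3. Its log2 difference was 4.37 ± 0.40, and column 12 held 72.6 CPM. The atypical myrosinase PEN2 was not called, at 219 and 202 CPM against 132 to 189 CPM with a log2 difference of 0.46 ± 0.05. Both of its columns in the pair lay above all 9 others, but the difference was under the size needed for a call. Over the whole list of breakdown genes, 16 of 21 members were tested, 3 were higher, 1 was lower and 12 were not called, with a median log2 difference of 0.33. Over all tested loci 1.39% were higher and 0.997% were lower. The lower member was ESP, whose level chose the pair, so that call was fixed in advance. Of the higher members, NSP2 passed the filter on low counts only through the columns of the pair.

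**Figure D2:**
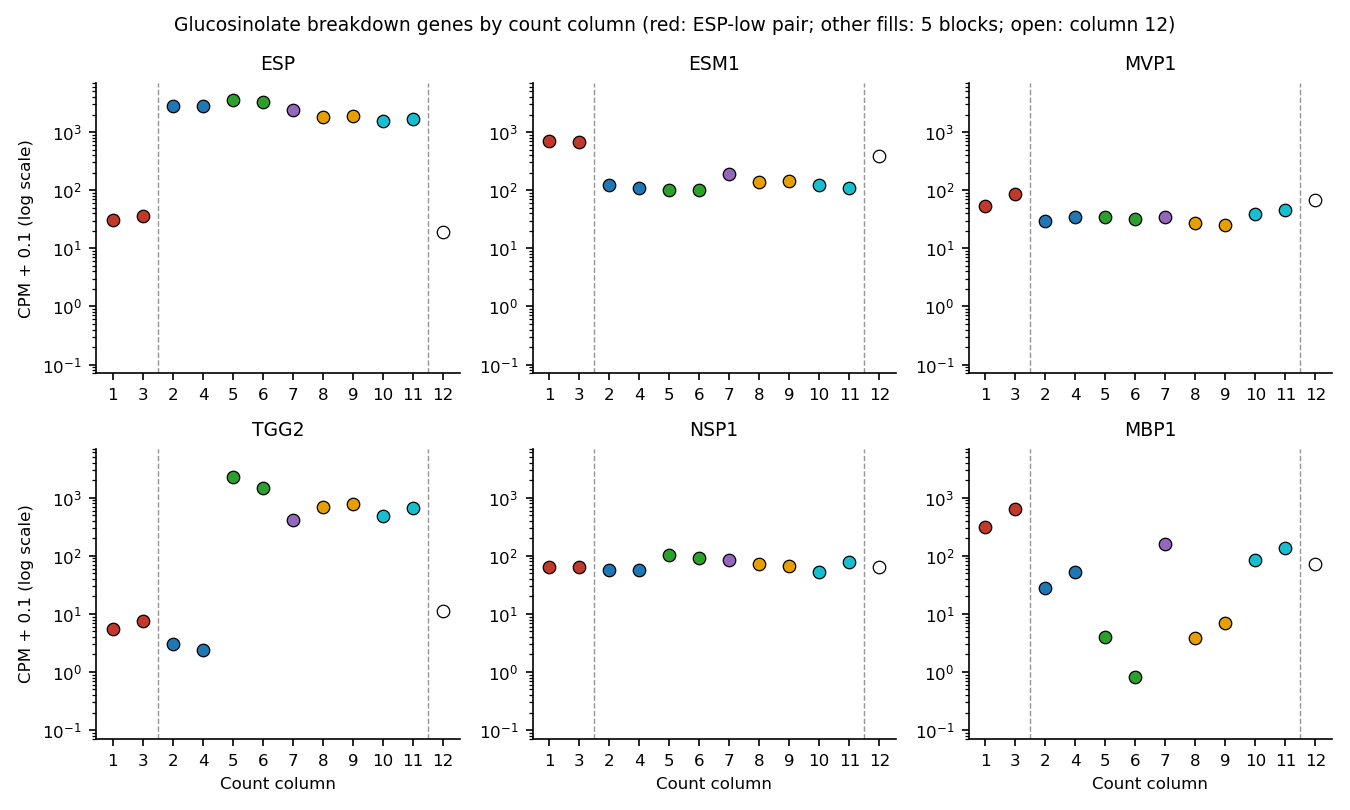
CPM + 0.1 on a log scale (vertical axis) for 6 glucosinolate breakdown genes in count columns 1 to 12 (horizontal axis, ordered by block), with the ESP-low pair in red, the 5 blocks in other fills and column 12 open. ESP is lower and ESM1, MVP1 and MBP1 are higher in the pair than in all 9 other filled points, TGG2 is low in the pair and in block 2, and NSP1 overlaps.

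Genes that build aliphatic glucosinolates showed no call. Of 35 members 33 were tested, and the median log2 difference was 0.08. Of the 33, 0 were higher (1.39% over all tested loci) and 0 were lower (0.997%). The elongation gene MAM1 stood at 122 and 174 CPM against 127 to 574 CPM. IMS2 (MAM3 in the list), annotated as 2-isopropylmalate synthase 2, was at 177 and 172 CPM against 24.2 to 174 CPM. Its log2 difference was 1.18 ± 0.07, and its range touched that of column 7. The side chain gene AOP3 was at 0.29 and 0 CPM in the pair, at most 0.30 CPM in blocks 2 to 5, and at 387 and 414 CPM in block 6. AT2G25450, entered in the list as GSL-OH, a side chain hydroxylase, was at 38.4 and 34.1 CPM in the pair, close to blocks 3 and 4 (30.6 to 43.5 CPM), below block 5 (294 and 266 CPM) and above blocks 2 and 6 (0.58 to 9.77 CPM). AOP2, which shares its position with AOP3, was not analysed here. The pair overlapped the other columns at each of these 4 synthesis loci.

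No other locus among the 5 on either side of ESP in the table order of locus codes was called lower. Of these, GLIP3 (3 counts, all in column 3) and AT1G54070 were not tested. MVP1 and AT1G54050, the nearest on each side in that order, were both called higher in the pair, MVP1 not without column 3. AT1G54050, an HSP20-like chaperone gene, stood at 6.88 and 9.43 CPM against 1.05 to 3.35 CPM, a log2 difference of 2.21 ± 0.22. None of the other loci tested among these was called. ASIL1 was at −0.04 ± 0.09 and UBP1A at 0.00 ± 0.05 on the log2 scale. AT1G54010, a further GDSL-like lipase gene, stood at 37.9 and 62.3 CPM against 16.9 to 38.0 CPM (0.95 ± 0.31). EXO70D2, an exocyst subunit gene, was above all 9 others in both columns of the pair (32.1 and 31.8 CPM against 21.8 to 28.0 CPM), with a log2 difference of 0.37 ± 0.09. Whether a gene is less expressed or its reads come from a diverged allele that aligns poorly to the reference cannot be told apart in counts of this kind, at ESP or at any other locus.

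The largest differences lay at loci that were nearly silent on one side. AT5G36930, a TIR-NBS-LRR gene of the disease resistance class, held 59.6 and 47.7 CPM in the pair and 2 counts in all 9 other columns together. The ratio of the pooled counts was 2023, with an exact 95% interval of 558 to 16740 that covers counting error only. AT1G23960, a gene of unknown function with a DUF626 domain, held 29.2 and 32.0 CPM in the pair and 0 counts in the other 9, and so was at least 816-fold higher when the limit of 3 counts is taken over the 9 columns together. AT1G72840, also TIR-NBS-LRR, stood at 6.31 and 5.13 CPM against at most 0.47 CPM. These were the 3 loci at 5 CPM or more in both columns of the pair and under 0.5 CPM in all 9 others, 0.0124% of all loci.

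SCPL41 (AT5G42230), a serine carboxypeptidase-like gene, was at 50.8 and 41.9 CPM against 0.16 to 0.95 CPM, a log2 difference of 6.76 ± 0.18. AT1G10110, an F-box gene, stood at 13.2 and 11.9 CPM against at most 0.55 CPM. F-box proteins select targets for degradation. Some other loci were silent in several blocks but not in all. AT3G61010, of the ferritin and ribonucleotide reductase-like family, held 142 and 125 CPM in the pair and 60.9 to 110 CPM in blocks 3 and 4, and at most 0.18 CPM in blocks 2, 5 and 6. 2A6 (AT1G03410), a gene for a 2-oxoglutarate-dependent oxygenase-like protein, was at 25.5 and 24.8 CPM in the pair, 15.2 CPM in block 4 and at most 3.99 CPM elsewhere.

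The reverse pattern, under 0.5 CPM in the pair and at least 5 CPM in all 9 others, was met by 1 locus, 0.00413% of all loci. This was AT5G47250, an NB-ARC and leucine-rich repeat gene of the disease resistance class, with 0 and 0.09 CPM in the pair (1 count in all) and 8.02 to 21.3 CPM in the other 9. The pooled ratio was 203 with an exact 95% interval of 36.3 to 8008. AT5G42530, an uncharacterized protein gene, kept residual counts in the pair and so did not meet that pattern. It stood at 2.29 and 0.65 CPM in the pair against 288 to 1844 CPM, a log2 difference of −9.54 ± 0.36 (−8.46 without column 3 and −10.22 without column 1). AT2G25510, also uncharacterized, was at 2.29 and 1.21 CPM against 134 to 1840 CPM, a log2 difference of −8.55 ± 0.33 (−7.95 without column 3). These 2 transcripts were the next most abundant lower ones after ESP.

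AT5G28350, annotated as RIC1-like, was nearly equal in the columns of the pair, at 0.86 and 0.84 CPM in the pair and 26.6 to 61.2 CPM in the other 9, a log2 difference of −5.46 ± 0.18. CSLB03 (AT2G32530), a cellulose synthase-like gene, stood at 1.15 and 0.56 CPM against 7.82 to 32.5 CPM (−4.73 ± 0.23, and −4.05 without column 3). AT2G32650, a cupin-like gene, stood at 2.01 and 0.75 CPM against 14.2 to 23.4 CPM (−4.21 ± 0.24, and −3.32 without column 3). At 3 further lower loci another block was also low, so the pair was the lowest of several. AT3G62530, an ARM repeat gene, was at 14.6 and 8.59 CPM in the pair, 16.6 and 18.9 CPM in block 3 and 369 to 1202 CPM elsewhere. AT1G72910, a TIR domain gene, was at 0 and 0.09 CPM in the pair, 0.36 and 0.22 CPM in block 6 and 9.84 to 79.4 CPM elsewhere. AT4G14390, an ankyrin repeat gene, held 2 counts in the pair and 0.95 to 62.3 CPM in the other 9. Among genes of moderate abundance, AT5G13980, a glycosyl hydrolase gene chosen after its values were seen, was at 54.8 and 54.0 CPM against 109 to 144 CPM.

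**Figure D3:**
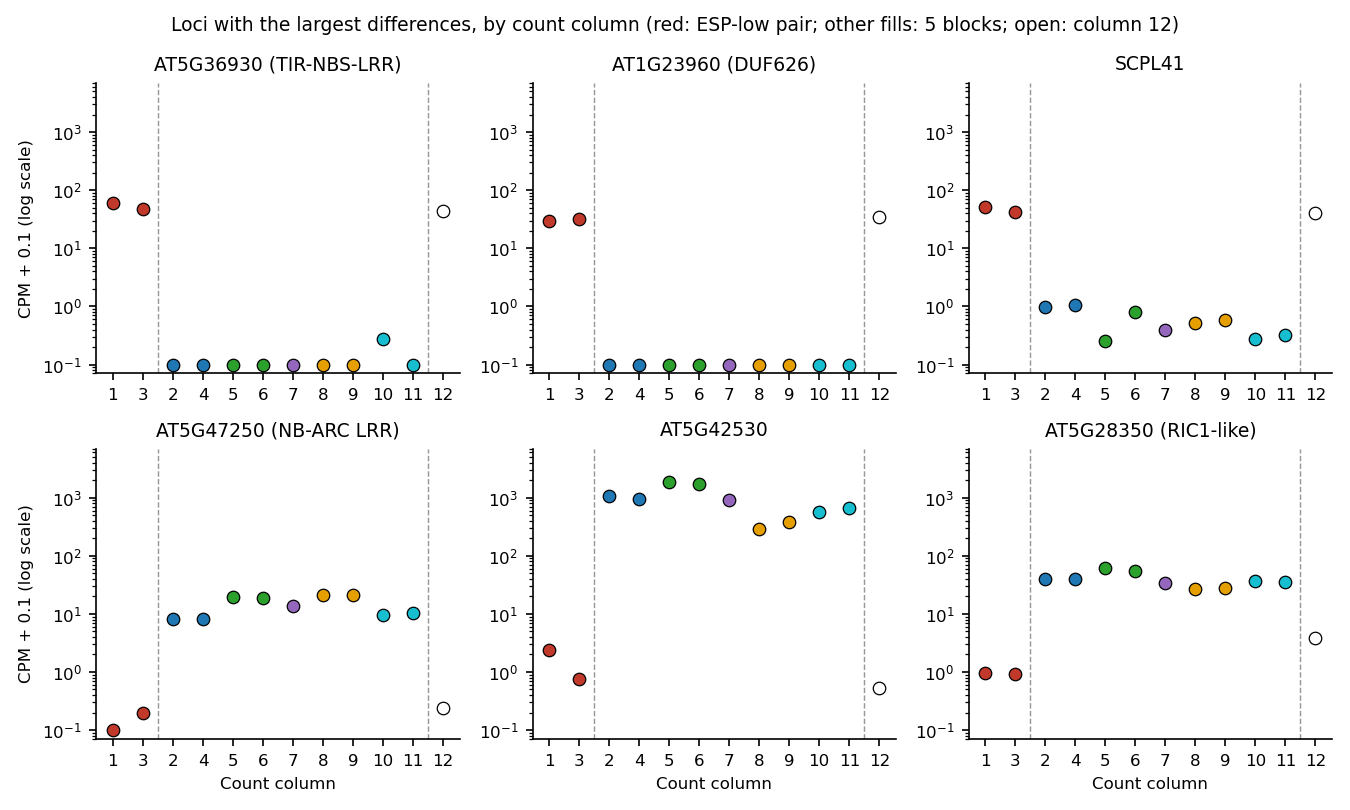
CPM + 0.1 on a log scale (vertical axis) for 6 loci in count columns 1 to 12 (horizontal axis, ordered by block), with the ESP-low pair in red, the 5 blocks in other fills and column 12 open. The upper 3 loci are on in the pair and in column 12, and the lower 3 are low in the pair and in column 12.

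Annotations of the disease resistance kind recurred among the called loci. Products naming disease resistance, NB-ARC, NBS or a TIR domain, words chosen after the values were seen, were carried by 10 of the 239 higher loci (4.18%) and 5 of the 172 lower loci (2.91%), and by 0.794% of all loci tested. F-box products were carried by 2.09% of the higher, 3.49% of the lower and 0.858% of all tested loci, and cytochrome P450 products by 1.67%, 2.91% and 0.783%. Kinase products lay below the share over all tested loci, at 5.44%, 1.74% and 5.97%, and hypothetical or uncharacterized ones above it, at 7.11%, 10.5% and 4.99%. These 5 word groups were not tested. The resistance and F-box families hold many near copies and differ in sequence between accessions, so their counts are uncertain. From the fixed list of immune receptors, 24 of 27 members were tested, with a median log2 difference of 0.34. Of the 24, 1 was higher (1.39% over all tested loci) and 0 were lower (0.997%). The called member was AT5G41750, at 73.1 and 45.5 CPM against 1.88 to 11.8 CPM (3.58 ± 0.15), and its neighbouring copy AT5G41740 was at 51.6 and 22.6 CPM against 0.60 to 12.3 CPM. RPM1, a receptor for bacterial effectors, was on in the pair (10.9 and 7.94 CPM) and in block 6 (11.4 and 14.6 CPM) and at most 0.14 CPM in blocks 2 to 5. DAR4 was on in the pair (29.5 and 30.4 CPM) and in blocks 3 to 5 (43.1 to 65.4 CPM), and at most 0.14 CPM in blocks 2 and 6. RPM1 and DAR4 each took in the pair the state that some other blocks had.

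Called loci lay next to each other in some cases. Of the 239 higher loci, 19 had a called higher locus as their direct neighbour in the table order of locus codes, and of the 172 lower loci, 6 had a lower one. These are shares of 7.95% and 3.49%, and over all tested loci 2.07% had a called higher and 1.48% a called lower neighbour. Examples are AT5G41740 with AT5G41750, and the MATE efflux genes AT3G23550 and ALF5 (AT3G23560). ALF5 stood at 20.4 and 18.8 CPM against 4.57 to 14.7 CPM.

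The 2 columns of the pair differed from each other more than those of any other block with 2 columns. Between columns 1 and 3, 729 tested loci differed by more than 2-fold in CPM + 0.5, against 138 to 243 loci within blocks 2, 3, 5 and 6. Of the 729, 478 were higher in column 3 (2.77% of all tested) and 251 were higher in column 1 (1.46%). Pearson r of log2(CPM + 1) was 0.975 within the pair and 0.992 to 0.993 within the other blocks. Of the 239 higher loci 21 (8.79%) differed by more than 2-fold between the columns of the pair, and of the 172 lower loci 13 (7.56%), against 4.23% of all tested loci. Column 1 also had the fewest counts of the series. The part of depth, treatment or batch in this difference was not tested.

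Jasmonate genes were among the loci that differed within the pair. Jasmonates are lipid-derived wound and defence hormones, made by lipoxygenases (LOX), allene oxide synthase and cyclase (AOS, AOC) and OPR3, and held in check by JAZ repressors. Of 24 members 21 were tested, and 11 of these were more than 2-fold higher in column 3 than in column 1 and 0 the other way. Over all tested loci these shares were 2.77% and 1.46%. LOX4 was at 4.30 and 23.2 CPM, JAZ1 at 6.88 and 46.3 CPM, and JAZ9 (TIFY7) at 22.4 and 74.6 CPM in columns 1 and 3. Against the 5 blocks the list had a median log2 difference of 1.45. It held 12 members at 1 or more, a size whose share over all tested loci was not counted. Of these 1 was called, the only call among the 21 tested, where 1.39% of all tested loci were called higher. In 8 of the other 11, column 3 lay above all 9 other columns and column 1 did not. The called member was VSP1 (AT5G24780), a vegetative storage protein induced by jasmonate, at 100.1 and 288 CPM against 1.41 to 45.6 CPM, a log2 difference of 4.82 ± 0.52 (3.80 without column 3). Its close copy VSP2 was at 17.5 and 26.7 CPM against 0.71 to 66.5 CPM, with overlap.

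Camalexin genes were uneven in the same way. Camalexin is the indolic phytoalexin of Arabidopsis, and CYP71A13 and PAD3 catalyse steps of its synthesis. CYP71A13 was at 5.74 CPM in column 1 and 250.0 CPM in column 3, and at most 13.9 CPM in the other 9. PAD3 was at 2.29 and 162 CPM, and at most 14.1 CPM in the other 9. In both genes column 3 was far above, and column 1 was within, the range of the other columns. In the list of indolic glucosinolate and camalexin genes, 16 of 19 members were tested, at a median of 1.31. Of these 2 were higher (1.39% over all tested loci), 0 were lower (0.997%) and 14 were not called. The called members were GSTF10, a glutathione transferase, at 531 and 709 CPM against 119 to 414 CPM (1.44 ± 0.09), and IGMT2, an indole glucosinolate methyltransferase, at 11.5 and 14.9 CPM against 0.72 to 9.42 CPM (1.56 ± 0.21).

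The same unevenness held for the detoxification gene GSTU24 (AT1G17170), at 2.01 and 85.3 CPM against at most 1.99 CPM, where the call rests on a margin of under 1 count in column 1. Its log2 difference was 6.33 ± 1.07 and 1.70 without column 3, and the call ended on leaving out any of 8 of the 11 columns. PXMT1 (AT1G66700), a methyltransferase gene, stood at 13.2 and 91.4 CPM against at most 4.39 CPM, and the MATE efflux gene AT3G23550 at 2.58 and 19.7 CPM against at most 1.79 CPM. Of the oxidative stress and detoxification list, 15 of 20 were tested, with a median of 0.87. Of the 15, 3 were higher (1.39% over all tested loci) and 0 lower (0.997%). Besides GSTU24 these were RHL41 (ZAT12), a zinc finger factor of oxidative stress, at 2.29 and 5.88 CPM against at most 1.81 CPM, and UGT73B5, a glycosyltransferase, at 3.44 and 11.0 CPM against at most 2.95 CPM. All 3 were higher in column 3 than in column 1.

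Salicylic acid genes gave no call. Salicylic acid is the hormone of defence against biotrophic pathogens, and PR1 is its standard output gene. Of 24 members 23 were tested and 0 were called (1.39% of all tested loci were higher and 0.997% lower), with a median of 1.13. Of the 23, 12 had a log2 difference of 1 or more, a size whose share over all tested loci was not counted. In all 12 of these, block 3 reached into or above the range of the pair. This was not particular to the list. Among uncalled members at 1 or more, block 3 did so at 7 of 7 indolic glucosinolate and camalexin genes and 7 of 11 jasmonate genes. It also did so at 4 of 4 oxidative stress and detoxification, 6 of 6 pattern immunity and 3 of 3 senescence genes. PR1 was at 73.4 and 187 CPM in the pair, at 1005 and 901 CPM in block 3 and at most 6.08 CPM in the other 7 columns. PR5 was at 119 and 135 CPM in the pair, 370 and 368 CPM in block 3 and 14.2 to 38.5 CPM elsewhere. The pair thus stood between block 3 and the rest for these output genes. The members split within the pair, with 6 more than 2-fold higher in column 3 and 5 in column 1 (2.77% and 1.46% of all tested loci). FMO1 was at 0.29 and 9.43 CPM and ALD1 at 0.29 and 17.2 CPM in columns 1 and 3, whereas DMR6 was at 87.2 and 27.4 CPM.

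The remaining lists held no call. The medians were −0.04 for nuclear photosynthesis (21 of 21 tested), −0.03 for flavonoid genes (18 of 22), −0.09 for UVR8 signalling (11 of 13), 0.05 for DNA damage and mitosis (10 of 12) and −0.01 for reference genes (8 of 8). Those for pattern immunity (18 of 18), heat shock and unfolded protein (11 of 15) and senescence (5 of 9) were 0.69, 0.38 and 1.81. The pattern immunity and senescence lists again held members that were high in column 3 but not in column 1, such as WRKY40 at 1.15 and 22.0 CPM and SAG13 at 0.86 and 51.7 CPM. The flowering list (11 of 16 tested) had a median of −0.34. FLC, which represses flowering, held 101.8 and 90.9 CPM in the pair, within the 76.5 to 119 CPM of blocks 2 to 4, and above the 0.16 to 6.90 CPM of blocks 5 and 6. The natural variation list (7 of 13 tested) had a median of 0.17, the root markers (4 of 13) 0.01 and the flower and seed markers (3 of 9) 0.41. Over the 19 lists, 14 held no call.

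**Figure D4:**
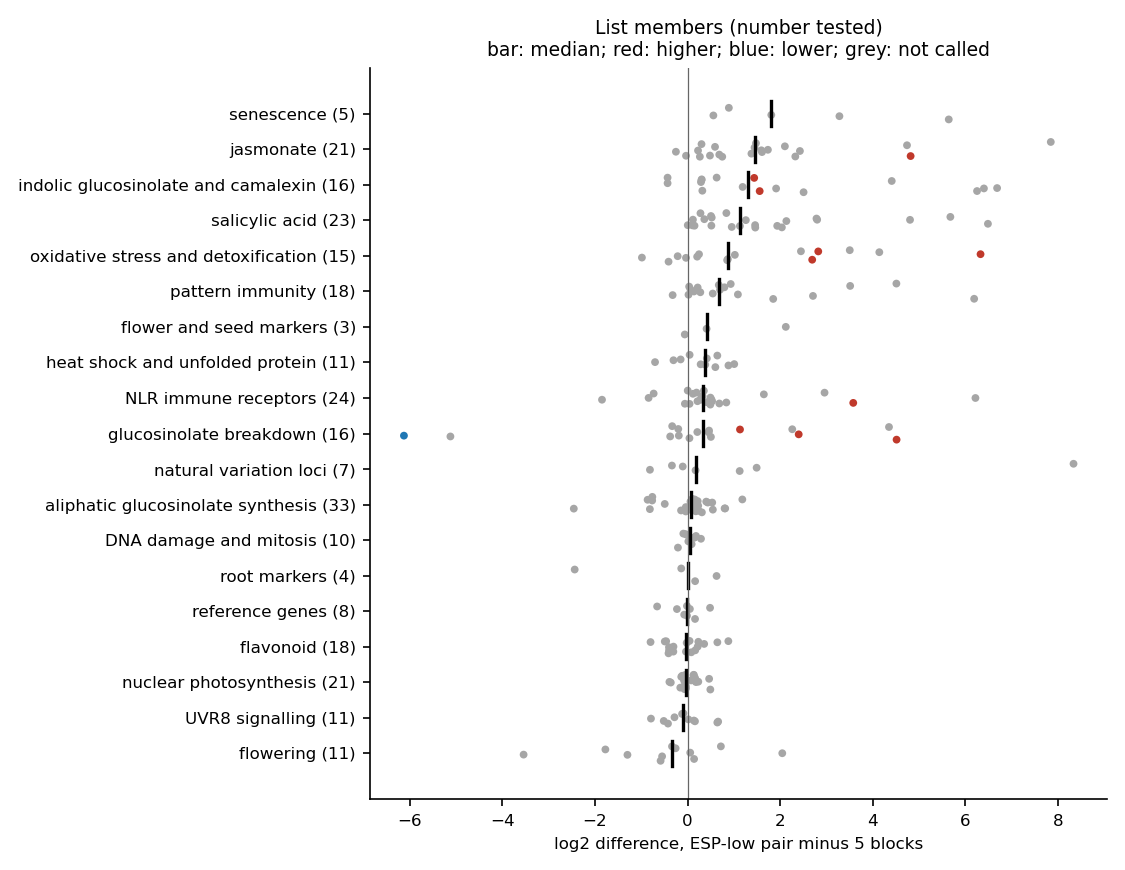
Fitted log2 difference of the ESP-low pair from the mean of the 5 blocks (horizontal axis) for each tested member of 19 gene lists (vertical axis, number tested in brackets), with the median as a bar. Called members are coloured. The senescence, jasmonate, indolic glucosinolate and camalexin, and salicylic acid lists have medians above 1 with few or no calls.

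Columns 12 to 22 were not used to choose the pair or the loci. They are shown as values, since no label ties any of them to the pair. In 1 of these 11 columns, column 12 (Lip-0 mock 1 by label), ESP was low, at 19.3 CPM, and in columns 13 to 22 it ran from 815 to 3732 CPM. ESM1 was at 390 CPM in column 12 and at 23.8 to 81.3 CPM in the other 10. TGG2 was at 11.2 CPM in column 12 and at 3.04 to 2064 CPM in columns 13 to 22. The on-only loci AT5G36930, AT1G23960 and AT1G72840 stood at 43.5, 34.9 and 6.25 CPM there and at most 0.11, 0.16 and 0.90 CPM in columns 13 to 22. AT5G47250 was at 0.14 CPM in column 12 against 7.59 to 16.9 CPM, and AT5G42530 at 0.43 CPM against 94.1 to 562 CPM.

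Over all called loci, column 12 was above each of columns 13 to 22 at 105 of the 239 higher loci (43.9%) and below each of them at 6. The share over all tested loci was 8.70% above and 7.24% below. It was below all 10 at 103 of the 172 lower loci (59.9%) and above all 10 at 1. Column 12 is a lone library, so these are values with no test. Of the 105 higher and 103 lower loci, 86 and 100 were not ones at which all of columns 12 to 22 lay beyond the 9 columns of the blocks.

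**Figure D5:**
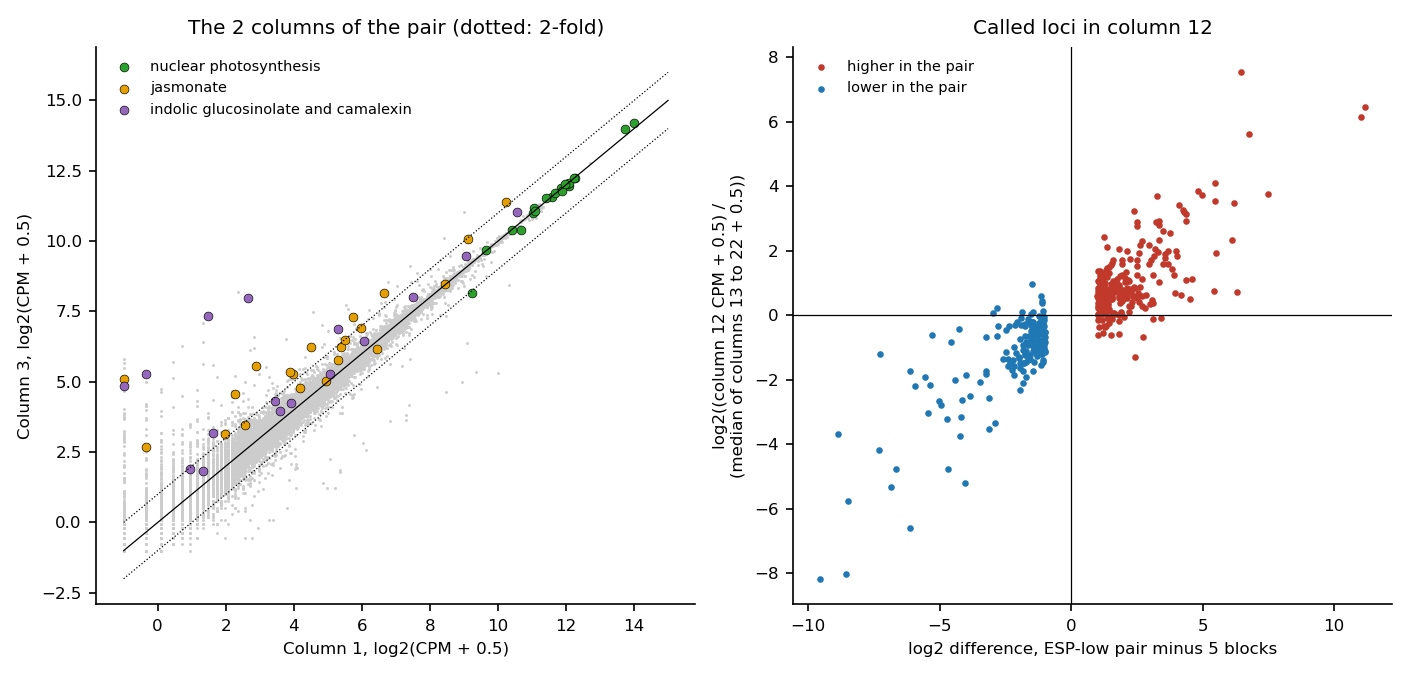
Left, log2(CPM + 0.5) in column 3 against column 1 for all tested loci, with 3 lists in colour and dotted lines at 2-fold, where 11 of 21 jasmonate genes lie above the upper dotted line and the photosynthesis genes lie close to the diagonal, 1 of them below the lower dotted line. Right, for the 411 called loci, the log2 ratio of column 12 to the median of columns 13 to 22 (vertical axis) against the log2 difference of the pair (horizontal axis), with the largest differences on the same side in both.

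The last 11 columns as a whole differ from the first 11, and some loci that were higher in the pair were also higher throughout the last 11. At 68 of the 239 higher loci (28.5%) all of columns 12 to 22 lay above all 9 columns of the blocks, as they did at 13.7% of all tested loci, and at 10 of the 68 column 3 was more than 2-fold above column 1. At 10 of the 172 lower loci (5.81%) they lay below all 9, against 12.4% of all tested loci. The calls and these counts were made against the same 9 columns, so the shares are not independent of the calls. They do not show a likeness between the pair and the last 11 columns. GSTU24 ran from 135 to 414 CPM in columns 13 to 22 and PXMT1 reached 217 CPM, whereas SCPL41 was at most 0.61 CPM there. Column 3 correlated with columns 13 to 22 at r = 0.809 to 0.903, and column 1 at 0.775 to 0.883, both over 17249 loci, which are not independent. The part of this difference in the calls was not tested.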

How the data were processed

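Total RNA of whole seedlings was extracted on RNeasy columns with DNase and made into TruSeq libraries, per the labels' protocols. The authors deposited raw counts per locus as whole numbers, without normalization. The submitters' processing notes name the tools TopHat and FastQC beside 2 genome builds, TAIR10 and TAIR9. For their versions and roles, the counting program and its use of strand, the sources used here give nothing, so counts of overlapping genes and near copies are uncertain. Columns were matched to samples by the number in their names, and 0 columns were unmatched. Names came from RefSeq for assembly TAIR10.1, which held 23847 of 24185 loci, and no coordinates were used.

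Library totals ran from 3539510 to 20903894 counts. Intervals and limits cover counting error only: the reads carry no molecular identifiers and may repeat the same molecule. TMM factors came from all 22 columns. Columns 1 to 11 were fitted with 6 block means in edgeR 4.0.16 (quasi-likelihood, robust) in R 4.3.3, with 5 residual degrees of freedom and a biological coefficient of variation of 7.61%. The fit held the 17249 loci that reached 1 CPM in 2 columns or more. The difference is the pair minus the mean of the 5 other block means on the log2 scale, and its standard error comes from the F statistic. That error holds the spread within blocks only, not the spread among the 5 blocks. For loci near 0 on one side the fitted value depends on the prior count, so ratios of counts or limits are given. The script was tested on simulated data. DESeq2 1.42.0 and Python 3.11.15 were used for alternatives and tables.

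The named genes were ESP, the 10 largest and 10 smallest log2 differences among called loci with a mean of at least 10 CPM in the higher group, up to 4 called members of each list, the loci off or on only in the pair, and AOP2, AOP3, GSL-OH, MAM1 and FLC. Members of lists beyond these were named after their values were seen. The pair, the gene lists and the rules were chosen with earlier results of these data known. AOP2 was not analysed here. Alternatives were other scalings, filters, fold limits and call rules, single blocks, and leaving out each column.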

Additional observations from a re-analysis of the deposited data

How the results depend on the processing

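The counts of 239 higher and 172 lower loci stayed within 1.5 times under DESeq2 size factors, library totals and an equal mean of the 9 columns. With no low count filter 382 loci were higher, and with at least 5 CPM in at least 2 columns 141 were higher and 111 lower. A log2 difference of at least 2 left 97 and 54. Calls by an adjusted p under 0.05, used only as another way to count, gave 785 and 262 (edgeR) and 591 higher (DESeq2). Against 1 block alone, where fewer columns must be cleared, the higher and lower counts were 846 and 444 (block 2) and, added after seeing the data, 581 and 821 (block 3), 806 and 398 (block 4), 1021 and 601 (block 5) and 947 and 465 (block 6). Leaving out each column gave 244 to 596 higher and 171 to 450 lower loci. The largest counts came without a column of the pair: 596 and 304 without column 1, of which 200 and 153 were among the original calls, and 430 and 450 without column 3, of which 185 and 152 were. The 1 off locus became 2 at limits of 1 and 5 CPM and 0 at 0.5 and 10 CPM, and ran from 1 to 2 on leaving out columns. The 3 on-only loci became 5 at limits of 1 and 5 CPM, and ran from 3 to 14. Among the 29 named genes that were called, none of the 673 values that could be had under these alternatives turned sign. These genes were called because both columns of the pair lay beyond all 9 others. Their sign was therefore largely fixed by the choice, and its constancy is no check of the result. A further 23 values were not had, over 14 of these genes, because the gene no longer passed the filter on low counts (AT5G36930, AT1G23960, AT1G72840, AT1G10110, NSP2 and SCPL41 without either column of the pair). Of 448 values of named genes under alternatives, 65 moved by more than the spread within blocks. No paired analysis was possible because both libraries of the pair are numbered 1, so that the pair shares fewer than 2 replicate numbers with any block, and the differences carry no test. Low loci are limited by column 1, where 3 counts equal 0.86 CPM.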
